A study of Mus musculus with 6 samples.

Results

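Amino acids and the transmitters made from them cross cell membranes on solute carriers, and the carriers described here are those of the Slc1, Slc3, Slc6, Slc7, Slc36, Slc38 and Slc43 families. They were chosen by symbol: protein-coding rows whose name is one of these family prefixes, the letter a and a number, which gives 59 of the 46983 features in the table. The rule leaves out Slc6a20a, whose symbol ends in a letter. RNA came from uncultured oligodendrocytes of mouse brain, the cells that wrap axons in myelin, with 3 libraries labelled WT and 3 labelled Qk-KO. Qk-KO mice are Plp-CreERT2;QKLoxP/LoxP, so a tamoxifen-activated Cre recombinase expressed from the Plp promoter, which is active in cells of the oligodendrocyte lineage, recombines floxed Qk, the gene of the RNA-binding protein quaking. Mice of both groups were FvB/C57BL6 hybrids that received tamoxifen at 8 weeks of age and were sampled 4 days later. The genotype of the controls is given as WT, and whether they carry Cre or floxed alleles is not stated in the sources used here. The labels leave unsaid whether the 3 libraries of a group are 3 animals, and p-values therefore cover only the spread among the libraries, which may be technical.

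Carriers of the Slc1 family take up glutamate or exchange neutral amino acids, and those of the Slc6 family use the sodium and chloride gradients to take up GABA, glycine, monoamines, taurine, creatine or proline. In brain, glutamate released at synapses is cleared mainly by astrocytes, which return it to neurons as glutamine. Slc38 carriers move glutamine and other neutral amino acids across these membranes. Most Slc7 proteins are light chains that reach the cell surface only when bound to a heavy chain of the Slc3 family, while others carry cationic amino acids alone.

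The largest changes among the carriers were falls, and the promoters of the 5 that fell most and of the one that rose most are shown first; these genes were chosen after their values were seen. Each sequence is RefSeq's, on GRCm38.p6, 5′ to 3′ on the strand of the gene, from 250 bases before to 50 bases after an annotated start. The capitals mark matches on either strand to the composite element of ATF4 and C/EBP factors, spelled TGATGNAA, or to the antioxidant response element, spelled TGACNNNGC. The regions are chr3:50443564-50443863 (minus strand) for Slc7a11, chr11:20332664-20332963 (minus strand) for Slc1a4, chr6:114130991-114131290 (plus strand) for Slc6a11, chr7:35186135-35186434 (plus strand) for Slc7a10, chr2:102706188-102706487 (plus strand) for Slc1a2 and chr3:31310270-31310569 (minus strand) for Slc7a14. The Slc1a2 start lies inside the gene as GENCODE annotates it.
Slc7a11: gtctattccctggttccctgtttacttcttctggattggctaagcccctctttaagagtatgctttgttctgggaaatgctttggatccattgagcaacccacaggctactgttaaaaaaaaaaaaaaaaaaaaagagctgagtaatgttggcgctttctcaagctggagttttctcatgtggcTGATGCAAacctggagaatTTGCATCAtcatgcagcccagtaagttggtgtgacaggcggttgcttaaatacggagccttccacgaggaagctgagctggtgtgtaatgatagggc
Slc1a4: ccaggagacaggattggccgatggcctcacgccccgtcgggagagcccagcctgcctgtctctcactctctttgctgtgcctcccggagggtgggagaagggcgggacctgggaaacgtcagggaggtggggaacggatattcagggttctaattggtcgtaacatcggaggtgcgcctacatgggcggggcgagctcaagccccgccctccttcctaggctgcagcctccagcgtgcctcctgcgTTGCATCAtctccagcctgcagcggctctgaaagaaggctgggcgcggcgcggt
Slc6a11: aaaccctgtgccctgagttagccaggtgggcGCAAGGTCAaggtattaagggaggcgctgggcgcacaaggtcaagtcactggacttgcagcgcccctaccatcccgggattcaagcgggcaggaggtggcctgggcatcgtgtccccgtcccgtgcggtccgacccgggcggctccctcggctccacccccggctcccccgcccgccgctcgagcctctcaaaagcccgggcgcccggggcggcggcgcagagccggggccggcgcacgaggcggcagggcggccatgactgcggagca
Slc7a10: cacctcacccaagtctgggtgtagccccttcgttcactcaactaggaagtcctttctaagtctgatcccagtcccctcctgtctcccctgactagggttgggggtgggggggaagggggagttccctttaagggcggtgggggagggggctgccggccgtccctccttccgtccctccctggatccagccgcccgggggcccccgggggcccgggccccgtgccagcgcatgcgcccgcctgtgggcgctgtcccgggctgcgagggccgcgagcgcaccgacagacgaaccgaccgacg
Slc1a2: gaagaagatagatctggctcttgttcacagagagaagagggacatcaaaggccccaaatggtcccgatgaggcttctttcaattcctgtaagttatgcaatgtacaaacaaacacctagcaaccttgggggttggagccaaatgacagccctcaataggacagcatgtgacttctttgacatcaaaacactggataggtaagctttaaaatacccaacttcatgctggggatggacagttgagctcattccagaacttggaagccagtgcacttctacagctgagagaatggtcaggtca
Slc7a14: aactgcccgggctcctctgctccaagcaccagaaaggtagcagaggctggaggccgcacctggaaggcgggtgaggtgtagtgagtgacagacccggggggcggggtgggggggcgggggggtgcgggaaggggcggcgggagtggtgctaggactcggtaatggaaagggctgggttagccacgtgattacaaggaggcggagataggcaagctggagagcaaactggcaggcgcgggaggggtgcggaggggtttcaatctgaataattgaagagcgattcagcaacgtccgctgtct

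The promoter of Slc7a11 holds the ATF4 and C/EBP letters at 2 places, one on each strand, the first beginning 66 bases before the start, and that of Slc1a4 holds them once, 4 bases before the start. RefSeq promoters were found for 41 of the 59 carriers, 62 promoters in all. Those letters occur in 4 of the 62 carrier promoters, and in 3.97% of all 32851 mouse promoters in the same table. The 4 belong to 3 of the 41 carriers, Slc1a4, Slc7a11 and Slc7a7. Letters of the antioxidant element occur in 10 of the 62 carrier promoters, and in 12.4% of all promoters. The 10 belong to 8 of the 41 carriers, Slc6a11 among them. Base composition differed widely among the 6 printed regions: GC content was 72.3% in Slc6a11, 70.7% in Slc7a10, 65.0% in Slc1a4, 63.3% in Slc7a14, 45.7% in Slc1a2 and 44.7% in Slc7a11. A match to a motif is a description of these letters and not a site of binding.

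All values below are the deposited log2 values, in which 1 unit is a 2-fold difference. They behave as regularized log2 values, which are pulled toward the mean of the gene, most where reads are few. Changes can therefore be understated, in weak genes above all but also in strong carriers. The authors' deposited log2 fold change is -3.88 for Slc7a10, beside -3.30 here, and -2.73 for Slc1a2, beside -2.48. Values are listed in the order of replicates 1, 2 and 3, and a change is the Qk-KO mean less the WT mean, given ± limma's standard error (n = 3 libraries per group). A gene is called when limma's Benjamini-Hochberg adjusted p, taken over the 15153 features whose normalized counts average 20 or more, is under 0.05. The libraries were not alike: 4 ribosomal features took 59.8% to 64.8% of the signal in all WT libraries and in Qk-KO replicate 1, but 2.23% and 1.88% in Qk-KO replicates 2 and 3. Approximate reads outside these features were 8700000 to 13100000 in the first 4 libraries and 77100000 and 70000000 in the other 2. Both libraries with little ribosomal signal are Qk-KO, so Qk-KO replicate 1 alone against the 3 WT libraries is the comparison within one library type. That comparison borrows the spread of the WT libraries for its single Qk-KO library. Qk itself, summed over the gene, was 15.41, 15.67 and 15.31 in WT, against 16.10, 15.62 and 15.30 in Qk-KO (change 0.21 ± 0.25, adjusted p = 0.567). Recombined and intact exons are not told apart in a gene's total, so this is no check of the labels.

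Slc1a2 and Slc1a3 for glutamate, Slc6a11 for GABA, Slc7a10 for D-serine, Slc7a11 for cystine and Slc38a3 for glutamine fell in Qk-KO oligodendrocyte preparations, while the creatine carrier Slc6a8 and the orphan Slc7a14 rose. Some other carriers of glutamate, GABA or glutamine were not called, among them Slc1a1, Slc6a13, Slc1a5, Slc38a1, Slc38a2 and Slc38a5. Slc7a6, which exchanges arginine for glutamine, was called higher. Of the 59 carriers, 11 had no read in any library, 10 had reads but a mean under 20, and 38 were tested. Among the tested, 14 were called lower (36.8%) and 4 higher (10.5%), and 20 were not called. Over all features tested, 14.8% were called lower, 13.8% higher and 28.6% in either direction, against 47.4% of the carriers. Falls of at least 1 log2 unit were called for 10 carriers (26.3%), and for 6.05% of all features. The groups did not overlap in 25 carriers (65.8%), compared with 46.3% of all features. The median change of the 38 carriers was -0.24, beside 0.03 over all features, and it was -0.19, -0.45 and -0.21 in Qk-KO replicates 1, 2 and 3. For comparison, of 187 tested protein-coding genes of other Slc families, 28.9% were called lower, 14.4% higher and 11.2% lower by at least 1 log2 unit, with a median of -0.12.

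Most calls were also made within one library type, but not those of the rises Slc38a10 and Slc7a6 or the falls Slc7a1 and Slc38a11. Qk-KO replicate 1 alone against WT gave 13 carriers lower, beside 9.37% of all features, and 3 higher, beside 6.17%; of the 18 calls, 14 were made there too, in the same direction. The count of carriers called higher was 2 when WT replicate 1 or Qk-KO replicate 2 was left out and 2 with library type as a term, and 9 with library weights estimated gene by gene. All 18 calls were also made, in the same direction, in the authors' deposited table. Scaled by library size without the ribosomal features, 14 carriers were called lower and 3 higher, with a carrier median of -0.19. Of the 18 calls, 17 were kept there in the same direction. Scaling by library size alone, ribosomal reads included, shifted the median change of all features by 1.06, to 1.09, and the share of rises among calls from 48.2% to 97.3%. The median of the carriers then was 0.82, with 4 called higher and 2 lower, Slc6a11 and Slc7a10. The calls of Slc1a2 (-1.42, adjusted p = 0.0547), Slc7a11 (-1.19, 0.0960), Slc1a4 (-1.06, 0.120), Slc38a3 (-0.97, 0.138), Slc1a3 (-0.87, 0.171), Slc7a2 (-0.26, 0.7004), Slc7a5 (-0.15, 0.819) and Slc7a6 (1.53, 0.0577) were lost there with their direction kept, so calls and directions given here hold relative to the authors' scaling.

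**Figure D1:**
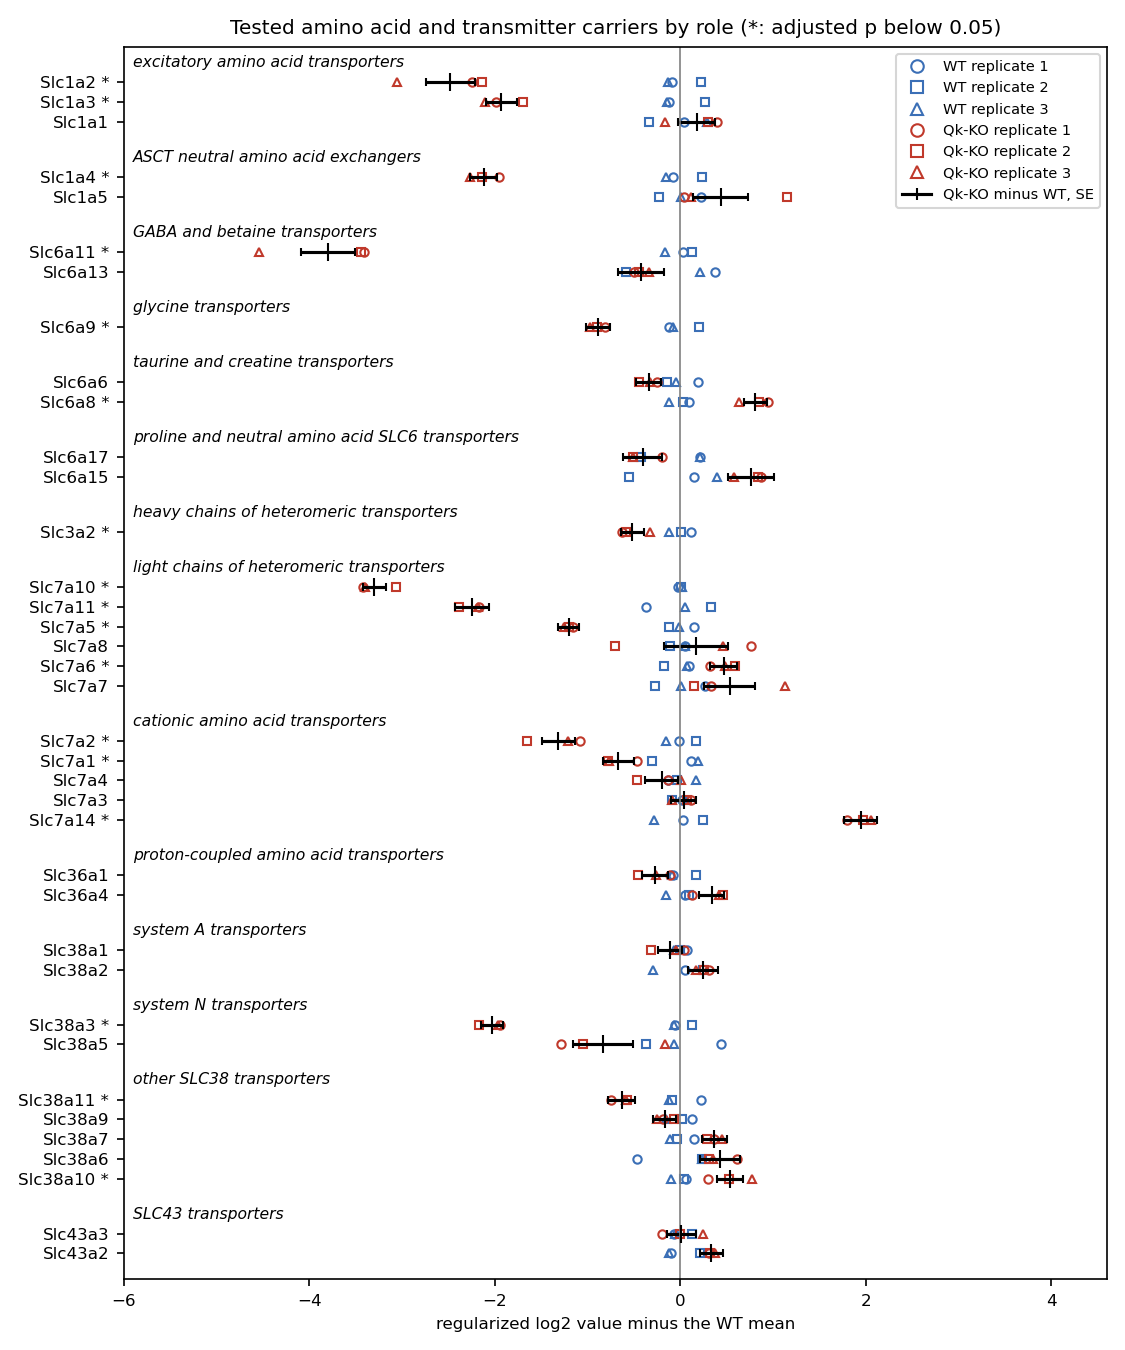
Tested carriers by role (37 drawn), each library's regularized log2 value minus the WT mean of that gene (horizontal axis), blue for WT and red for Qk-KO, with the change and its standard error in black and an asterisk on the 17 called. Falls reach 3.80 log2 units (Slc6a11) and rises 1.94 (Slc7a14); scaled by library size alone, the falls of Slc6a9, Slc3a2, Slc7a1 and Slc38a11 turn positive and 2 carriers are called lower.

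Markers of other cell types moved with the genotype, and they are given first because many carriers are known from astrocytes or endothelium. Of 20 astrocyte markers 19 fell, with a median change of -2.72; the exception was Gfap (0.81, adjusted p = 0.0526). Their summed level, in normalized counts back-transformed from the log2 values, was 100863 to 121511 in WT and 14985 to 20418 in Qk-KO. All 12 endothelial markers fell, with a median of -0.92 and sums of 37818 to 53790 in WT and 23272 to 24195 in Qk-KO. Mural markers fell in 7 of 9 and fibroblast markers in 5 of 7 tested, with medians of -0.80 and -0.81. Of 12 microglia markers 6 rose, with a median of 1.54, and their sums were 7853 to 12673 in WT and 18611 to 72112 in Qk-KO, the highest in replicate 3. Of 10 oligodendrocyte markers 6 rose and none fell; their summed level, 505337 to 659344 in WT and 691861 to 774622 in Qk-KO, was the highest of the 8 lists. Neuron markers rose in 1 of 12 and precursor markers fell in 1 of 8. No marker of any list was at 0. The part of these lists in the carrier results was not tested, and in such bulk samples fewer cells of a type and less RNA per cell cannot be told apart.

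**Figure D2:**
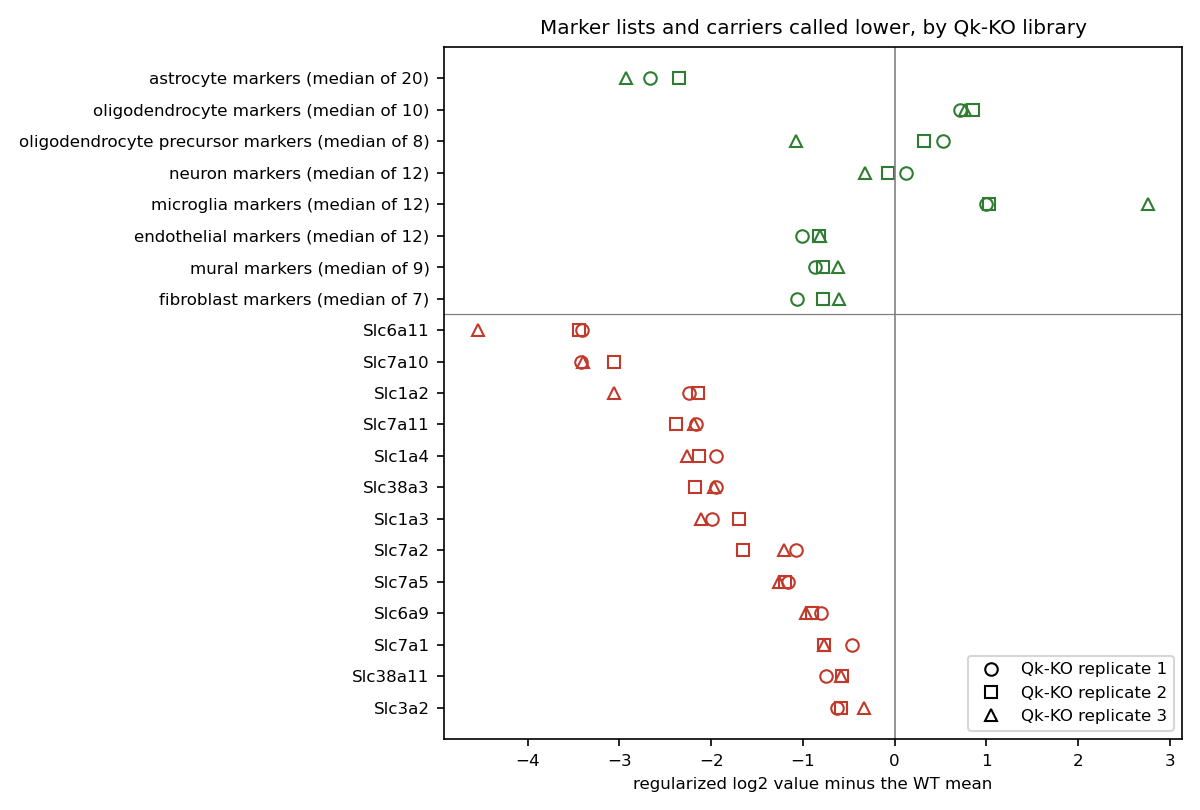
Difference from the WT mean in regularized log2 units for each Qk-KO library (circle, square and triangle for replicates 1, 2 and 3): medians of 8 marker lists in green and 13 carriers called lower in red. Astrocyte markers lie at -2.67, -2.36 and -2.93; scaled by library size alone, the falls of Slc6a9, Slc3a2, Slc7a1 and Slc38a11 turn positive and 2 carriers are called lower.

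The high-affinity glutamate carriers of astrocytes fell. Slc1a2, known as GLT1 and the main carrier of glutamate uptake in forebrain (ENSMUSG00000005089.15, chr2:102658659-102790784, mm10, plus strand), stood at 15.78, 16.09 and 15.74 in WT replicates 1, 2 and 3 and at 13.63, 13.73 and 12.81 in Qk-KO. Every Qk-KO library lay at least 2 units under the WT libraries, replicate 3 lowest. The change was -2.48 ± 0.26, a 5.57-fold fall (adjusted p = 0.000530), and -2.24 in Qk-KO replicate 1 alone. Slc1a3, or GLAST (chr15:8634124-8710764, minus strand), stood at 13.57, 13.95 and 13.54 in WT and at 11.70, 11.99 and 11.58 in Qk-KO. It fell 3.81-fold, by 1.93 ± 0.17 (adjusted p = 0.000217). Slc1a1, the carrier of glutamate and cysteine known mainly from neurons, was not called (0.18 ± 0.20, adjusted p = 0.542), and 31.9% of its exon bases overlap a gene on the other strand. Of the other members of this role, Slc1a6 had a mean of 4.57 and Slc1a7 had no read. Scaling cannot move a difference between 2 carriers taken within a library. Slc1a2 exceeded Slc1a3 by 2.21, 2.14 and 2.19 in WT and by 1.93, 1.74 and 1.23 in Qk-KO, so their difference was smaller in all 3 Qk-KO libraries.

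Among the neutral amino acid exchangers, Slc1a4 and Slc1a5 differed. Slc1a4, or ASCT1, which carries serine and alanine (chr11:20302180-20332713, minus strand), stood at 10.92, 11.24 and 10.84 in WT and at 9.05, 8.86 and 8.73 in Qk-KO. The groups were far apart, and the fall was 4.34-fold, by 2.12 ± 0.14 (adjusted p = 9.71e-05). Slc1a5, the glutamine exchanger ASCT2, stood at 7.95, 7.49 and 7.74 in WT and at 7.77, 8.87 and 7.84 in Qk-KO, where replicate 2 was the highest of all libraries. It was not called (0.43 ± 0.30, adjusted p = 0.299).

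The strongest fall of any carrier was that of a GABA carrier. Slc6a11, which takes up GABA and is known in brain from astrocytes (ENSMUSG00000030307.8, chr6:114131241-114249952, plus strand), stood at 14.22, 14.32 and 14.03 in WT and at 10.78, 10.75 and 9.65 in Qk-KO. It fell 13.9-fold, by 3.80 ± 0.29 (adjusted p = 0.000138), and by 3.41 in Qk-KO replicate 1 alone. No Qk-KO library came within 3 log2 units of a WT library, and Qk-KO replicate 3 was the lowest. Slc6a13, a GABA and taurine carrier known from the meninges, was not called (-0.43 ± 0.25, adjusted p = 0.231). The betaine carrier Slc6a12 had no read.

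The glycine carrier Slc6a9, or GLYT1, which clears glycine around glia (chr4:117834506-117875198, plus strand), stood at 12.84, 13.16 and 12.89 in WT and at 12.16, 12.07 and 11.996 in Qk-KO. All Qk-KO libraries lay under all WT libraries, and the change was -0.89 ± 0.13 (adjusted p = 0.00207) as the authors scaled the values but 0.17 with scaling by library size alone. Exons of other genes on the opposite strand cover 38.6% of its exon bases, and whether the authors counted by strand is not given in the sources used here, so part of this value may belong to them. Slc6a5, the glycine carrier of glycinergic neurons, had a mean of 1.33. The monoamine carriers were near or at 0, with means of 0.161 for the dopamine carrier Slc6a3 and 0.241 for the serotonin carrier Slc6a4 and no read for the noradrenaline carrier Slc6a2.

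The creatine carrier rose and the taurine carrier was not called. Slc6a8, which brings creatine into cells (ENSMUSG00000019558.14, chrX:73673150-73682502, plus strand), stood at 11.89, 11.82 and 11.68 in WT and at 12.74, 12.64 and 12.43 in Qk-KO. All Qk-KO libraries lay above all WT libraries: it rose 1.75-fold, by 0.81 ± 0.13 (adjusted p = 0.00292), and by 0.94 in Qk-KO replicate 1 alone. Slc6a6, the taurine carrier, stood at 13.62, 13.29 and 13.39 in WT and at 13.19, 13.00 and 13.10 in Qk-KO. Its groups did not overlap, yet it was not called (-0.34 ± 0.14, adjusted p = 0.0986). Slc6a8 minus Slc6a6 within a library was -1.74, -1.47 and -1.72 in WT, against -0.45, -0.35 and -0.68 in Qk-KO.

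Other Slc6 members were weak. Slc6a15, a carrier of branched-chain amino acids and proline in neurons, was 0.76 ± 0.25 higher with no overlap and missed the threshold (adjusted p = 0.0538); with scaling by library size alone it was called (1.82, adjusted p = 0.0369). Slc6a17, found on synaptic vesicles, was not called (-0.41 ± 0.21, adjusted p = 0.171). Slc6a7, Slc6a14 and Slc6a19 were under the filter and Slc6a18 had no read.

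The heavy chain and its light chains fell by unequal amounts. Slc3a2, the heavy chain known as 4F2hc or CD98 (chr19:8706882-8723369, minus strand), stood at 11.88, 11.78 and 11.65 in WT and at 11.14, 11.18 and 11.44 in Qk-KO. The groups were close, Qk-KO replicate 3 nearest to WT, and the change was -0.52 ± 0.13 (adjusted p = 0.0184), but 0.54 with scaling by library size alone. The call was lost without WT replicate 1 (adjusted p = 0.0756), WT replicate 2 (0.0529) or Qk-KO replicate 2 (0.0800). Slc3a1, the other heavy chain, had a mean of 6.83.

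Slc7a10, or Asc-1, exchanges D-serine, glycine and small neutral amino acids (ENSMUSG00000030495.12, chr7:35186385-35201114, plus strand). It stood at 11.93, 11.96 and 11.97 in WT and at 8.53, 8.89 and 8.55 in Qk-KO. Its 3 WT values were nearly equal, and it fell 9.83-fold, by 3.30 ± 0.13 (adjusted p = 5.69e-05); 17.9% of its exon bases overlap Lrp3 on the other strand. Slc7a11, or xCT, which imports cystine for glutathione in exchange for glutamate (ENSMUSG00000027737.10, chr3:49892526-50443614, minus strand), stood at 10.23, 10.93 and 10.65 in WT and at 8.43, 8.22 and 8.42 in Qk-KO. Its WT libraries varied by more than those of Slc7a10, without overlap with Qk-KO, and it fell 4.74-fold, by 2.25 ± 0.18 (adjusted p = 0.000183). Slc7a5, or LAT1, a carrier of large neutral amino acids at the blood-brain barrier (chr8:121881150-121907694, minus strand), stood at 11.51, 11.24 and 11.35 in WT and at 10.21, 10.17 and 10.11 in Qk-KO. It fell 2.30-fold, by 1.20 ± 0.11 (adjusted p = 0.000294), but stood at -0.15 with scaling by library size alone (adjusted p = 0.819). The endothelial markers had a median of -0.92; their part in the fall was not tested.

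Set against the shared heavy chain in the same library, Slc7a10 minus Slc3a2 averaged 0.19 ± 0.14 in WT and -2.59 ± 0.30 in Qk-KO (SD, 3 libraries each). The same difference went from -1.16 ± 0.43 to -2.89 ± 0.17 for Slc7a11 and from -0.40 ± 0.12 to -1.09 ± 0.21 for Slc7a5. All 3 light chains thus fell by more than their heavy chain in these libraries. Over the 6 pairs of carriers compared in this way the groups did not overlap, and each gave p = 0.1 in a two-sided exact permutation test of 3 against 3 libraries (0.1 after Benjamini-Hochberg adjustment over the 6), which is the smallest p this design allows.

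No other light chain was called lower. Slc7a6, or y+LAT2, which exchanges arginine for glutamine, stood at 8.04, 7.77 and 8.01 in WT and at 8.26, 8.54 and 8.43 in Qk-KO, a change of 0.47 ± 0.15 (adjusted p = 0.0457). That call is the weakest of the 18: it was lost without any single library except Qk-KO replicate 1 (adjusted p from 0.0815 to 0.173). Slc7a7, or y+LAT1, was not called (0.53 ± 0.27, adjusted p = 0.177); its highest value, 6.94, was in Qk-KO replicate 3, where the microglia markers were also highest (median 2.77), and their part in that value was not tested. Slc7a8, or LAT2, was not called either (0.17 ± 0.34, adjusted p = 0.738), with 8.45, 6.99 and 8.15 in Qk-KO, but was called in Qk-KO replicate 1 alone against WT (0.76, adjusted p = 0.0496). Slc7a9, Slc7a12, Slc7a13 and Slc7a15 had no read.

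Cationic amino acid carriers moved in both directions. Slc7a2, an arginine and lysine carrier (chr8:40862396-40922308, plus strand), stood at 9.86, 10.05 and 9.72 in WT and at 8.80, 8.22 and 8.67 in Qk-KO, and fell by 1.31 ± 0.18 (adjusted p = 0.00150); with scaling by library size alone the change was -0.26 (adjusted p = 0.7004). Slc7a1, or CAT1, the general carrier of this kind, stood at 10.02, 9.61 and 10.10 in WT and at 9.45, 9.14 and 9.14 in Qk-KO. Its fall was 0.67 ± 0.16 log2 units (adjusted p = 0.0194), turned to a change of 0.39 with scaling by library size alone, and was not called without WT replicate 1 (adjusted p = 0.0764), WT replicate 3 (0.0785) or Qk-KO replicate 2 (0.0755), nor in Qk-KO replicate 1 alone (-0.46, adjusted p = 0.195).

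The largest rise of any carrier was that of Slc7a14, placed by sequence in the cationic branch and known from lysosomes and neurons (ENSMUSG00000069072.9, chr3:31202858-31310378, minus strand). It stood at 6.01, 6.23 and 5.70 in WT and at 7.78, 7.95 and 8.04 in Qk-KO, with all 3 Qk-KO libraries well above WT. The rise was 3.85-fold, by 1.94 ± 0.18 (adjusted p = 0.000306), and 1.80 in Qk-KO replicate 1 alone; the authors' deposited table gives a log2 fold change of 3.03 for this weakly expressed gene. Slc7a3 and Slc7a4 were near the lower limit, with means of 23.8 and 66.7, and were not called (0.04 and -0.20, adjusted p = 0.865 and 0.426).

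Glutamine carriers of the 2 systems behaved unequally. Slc38a3, or SNAT3, the system N carrier by which astrocytes release glutamine (chr9:107650634-107669530, minus strand), stood at 12.03, 12.22 and 12.03 in WT and at 10.15, 9.92 and 10.13 in Qk-KO. The change was -2.03 ± 0.12, a 4.08-fold fall (adjusted p = 8.73e-05). Slc38a2, or SNAT2, the system A carrier that cells induce when amino acids are short (chr15:96687392-96699730, minus strand), stood at 13.14, 13.33 and 12.80 in WT and at 13.40, 13.35 and 13.26 in Qk-KO. The groups overlapped and it was not called (0.24 ± 0.16, adjusted p = 0.281). Within a library Slc38a3 lay under Slc38a2 by a mean of 0.998 in WT and 3.27 in Qk-KO.

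Slc38a5, the other system N carrier, was -0.83 ± 0.32 and not called (adjusted p = 0.0884), with 6.32, 6.57 and 7.45 in Qk-KO; it was called in Qk-KO replicate 1 alone against WT (-1.29, adjusted p = 0.0373). Slc38a1, a system A carrier of neurons, was not called (-0.11, adjusted p = 0.560), and Slc38a4 had no read.

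Of the remaining Slc38 carriers, Slc38a10 (chr11:120103960-120151346, minus strand) stood at 11.39, 11.37 and 11.23 in WT and at 11.63, 11.86 and 12.11 in Qk-KO. The change was 0.54 ± 0.14 (adjusted p = 0.0246). Leaving out one library ended this call for WT replicate 1 (adjusted p = 0.0663), WT replicate 2 (0.0594), WT replicate 3 (0.0948) and Qk-KO replicate 2 (0.0794), and in Qk-KO replicate 1 alone the change was 0.30 (adjusted p = 0.191). Slc38a11 stood at 8.58, 8.27 and 8.23 in WT and at 7.61, 7.78 and 7.78 in Qk-KO, a fall of 0.63 ± 0.15 (adjusted p = 0.0165) that turned to a change of 0.42 with scaling by library size alone. Its call was lost without WT replicate 1 (adjusted p = 0.0612), without Qk-KO replicate 2 (0.0545) and in Qk-KO replicate 1 alone (-0.74, adjusted p = 0.0629). Not called were Slc38a6 (0.43, adjusted p = 0.173), Slc38a7 (0.37, adjusted p = 0.0668) and Slc38a9, the arginine sensor of lysosomes (-0.17, adjusted p = 0.341). Slc38a8 had no read.

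No carrier of the proton-coupled Slc36 or of the Slc43 family was called. Slc43a2, or LAT4, a carrier of branched-chain amino acids and phenylalanine (chr11:75531694-75577575, plus strand), stood at 11.81, 12.13 and 11.79 in WT and at 12.22, 12.23 and 12.28 in Qk-KO. Its groups did not overlap, yet the difference of 0.34 ± 0.13 did not pass (adjusted p = 0.0786). Slc43a3, a nucleobase carrier, differed by 0.01 (adjusted p = 0.960). Slc36a1, which exports amino acids from lysosomes, and Slc36a4 were -0.27 ± 0.14 and 0.34 ± 0.13 (adjusted p = 0.177 and 0.0936). Slc43a1 and Slc36a2 were under the filter, and Slc36a3 had no read.

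**Figure D3:**
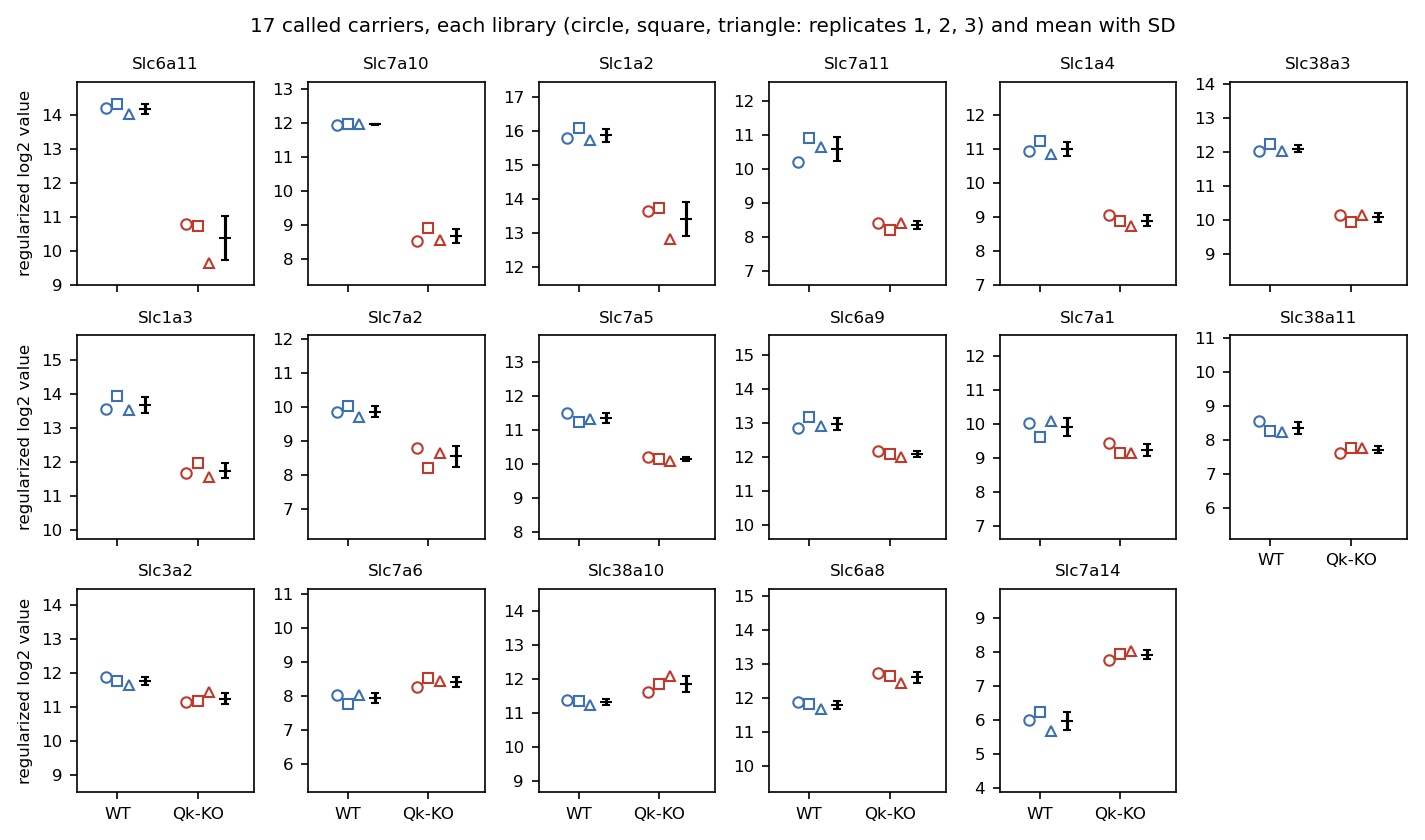
Regularized log2 values of 17 called carriers in each library, with mean and SD of the 3 libraries per group, every panel spanning 6 log2 units. In no panel do the groups overlap; scaled by library size alone, the falls of Slc6a9, Slc3a2, Slc7a1 and Slc38a11 turn positive and 2 carriers are called lower.

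Levels of different carriers were compared on the linear scale, per kilobase of exon (union of GENCODE M21 exons). They are normalized counts back-transformed from the deposited log2 values, so they share the pull toward the mean of the gene. In WT, Slc1a2 led with 4580 ± 626 (SD, n = 3), followed by Slc6a11 with 3720 ± 372; these 2 did not overlap. Slc7a10 had 1881 ± 24.8, Slc6a9 1565 ± 192 and Slc1a3 1558 ± 259; the means of the last pair differed by less than the spread. Slc6a6 (1316 ± 158), Slc38a2 (999 ± 183), Slc3a2 (990 ± 79.9) and Slc38a3 (830 ± 63.8) were also among the first 10. Of the first 10, 8 were called lower and none higher; of the other 28 tested carriers, 6 were lower and 4 higher.

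In Qk-KO the order was another one. Slc6a8 led with 1199 ± 129, Slc38a2 followed with 1170 ± 59.9 and Slc6a6 with 1037 ± 68.6, the first pair differing by less than their spread. Slc1a2 came next with 848 ± 262, differing from Slc6a9 (841 ± 48.0) by less than the spread. Slc6a11, at rank 2 in WT, was at rank 12 with 283 ± 108. Of these, 7 carriers were among the first 10 in both groups. The sum over the 38 tested carriers was 23268, 25195 and 21543 in WT, against 10581, 10447 and 9512 in Qk-KO. As shares of that sum, which must add up and so rise for some when others fall, Slc1a2 went from 19.6% to 8.25%, Slc6a11 from 15.9% to 2.74% and Slc7a10 from 8.10% to 1.89%. Over the same sums Slc6a8 went from 2.93% to 11.8%, Slc38a2 from 4.26% to 11.5% and Slc6a6 from 5.67% to 10.2%.

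**Figure D4:**
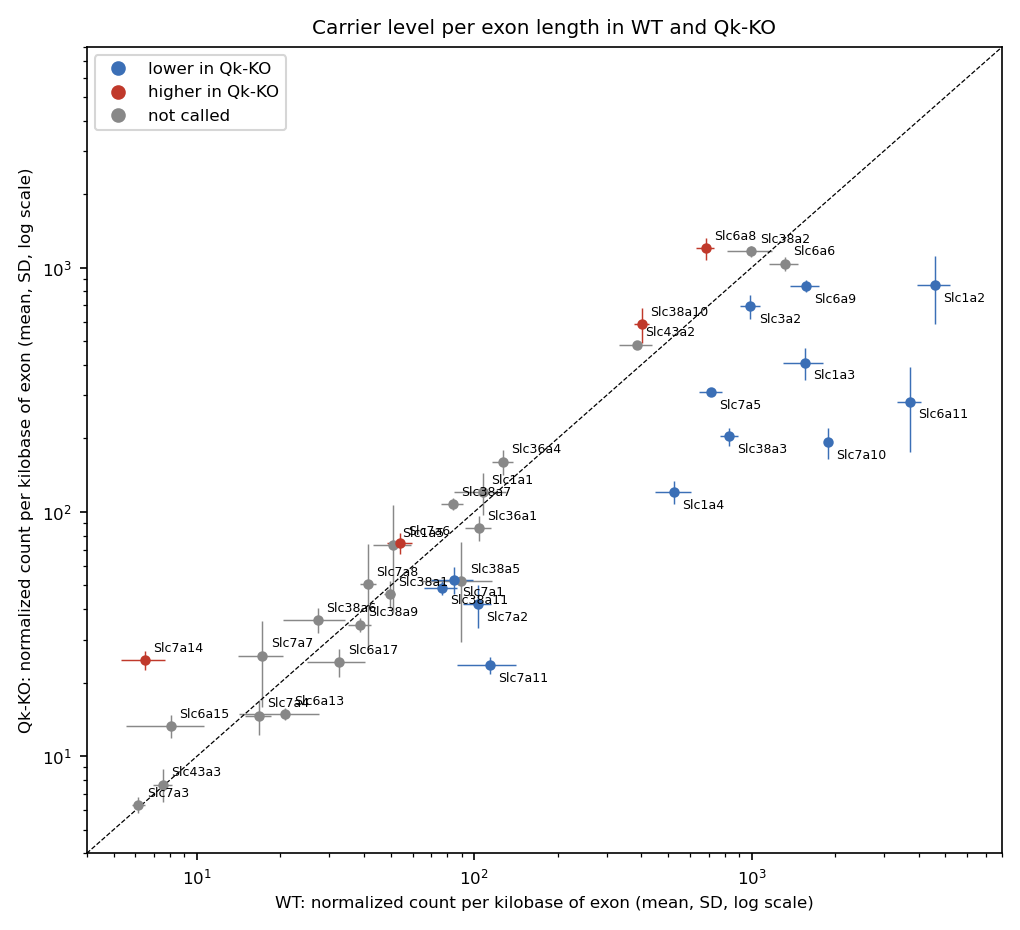
Mean level of 37 tested carriers in WT (horizontal) and Qk-KO (vertical), as back-transformed normalized count per kilobase of exon on log axes. Bars show the SD of 3 libraries. Blue marks carriers called lower, red higher and grey not called, and the dashed line marks equal levels. The carriers farthest to the right lie below the line, Slc1a2 at 4580 and 848 and Slc6a11 at 3720 and 283. Slc6a8 and the abundant Slc38a2, at 999 and 1170 and not called, lie above it. Scaled by library size alone, the falls of Slc6a9, Slc3a2, Slc7a1 and Slc38a11 turn positive and 2 carriers are called lower.

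Genes that make, use or sense the carried substances were taken from 7 lists, 78 genes of which 70 were tested; 16 rose (22.9%), 9 fell (12.9%) and 45 were not called, beside 13.8% higher and 14.8% lower over all features. Several single lists lay near these shares, and with scaling by library size alone no related gene was called lower (limma; 1 at an unadjusted p under 0.05, and 9 in the authors' deposited table). In glutamate and GABA metabolism 4 of 15 fell and 2 rose (median -0.02). The falls were those of Slc25a18, a mitochondrial glutamate carrier (-2.40, adjusted p = 6.30e-05), Abat, which breaks down GABA (-1.19, adjusted p = 0.000353), Glud1, glutamate dehydrogenase (-1.07, adjusted p = 0.000534), and Slc25a13. In serine and glycine metabolism 2 of 11 fell and 1 rose (median -0.18): Gldc, of the glycine cleavage system (-1.70, adjusted p = 0.000989), and Dao, which oxidizes D-serine (-1.43, adjusted p = 0.00120), fell, while Psat1, of serine synthesis, rose (0.84, adjusted p = 0.00636).

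Of 7 genes of taurine, creatine and glutathione synthesis 3 rose and 1 fell (median 0.25). Both enzymes of creatine synthesis were called, in opposite directions: Gamt, the second step, rose by 1.07 (adjusted p = 0.000879) and Gatm, the first step, fell by 0.85 (adjusted p = 0.00571). Gss, glutathione synthetase, rose by 1.43 (adjusted p = 0.000261). Among 13 tested genes of the response to ATF4, a factor induced by amino acid shortage, 6 rose and none fell (median 0.40), led by Asns, asparagine synthetase (1.71, adjusted p = 0.000525), Vldlr (0.85, adjusted p = 0.00243) and Mthfd2 (0.70, adjusted p = 0.00909). The carriers whose promoters hold the ATF4 and C/EBP letters stood at -2.12 (Slc1a4), -2.25 (Slc7a11) and 0.53 (Slc7a7, not called).

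Of 9 genes of branched-chain amino acid breakdown, Bcat1 rose (1.09, adjusted p = 0.00488) and Acadsb fell (-0.78, adjusted p = 0.00519), with a median of 0.07. Of 15 genes of lysosomal export and mTORC1 sensing, Rragc (0.72, adjusted p = 0.00267) and Lamtor2 (0.64, adjusted p = 0.0320) rose and Castor1 fell (-0.57, adjusted p = 0.0455), with a median of 0.17. One of 7 genes that load transmitters into vesicles was tested, the glutamate carrier Slc17a7, and it rose (0.82, adjusted p = 0.0112). The count of rises over all lists was 8 without Qk-KO replicate 2 and 8 in Qk-KO replicate 1 alone, and 7 with library type in the model.

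Quaking binds RNA, often in 3′ UTRs, and the first 1000 bases of each 3′ UTR were searched for the bipartite quaking response element. Its letters were taken as ACTAAY, a gap, then TAAY, with Y for C or T and at most 30 bases in all. The reverse order of the parts was not searched. In the order searched, the element was found in 560 of 9273 genes with a UTR of that length (6.04%) and in none of the 28 tested carriers with one. Slc6a14, not tested for lack of reads, was the only one of 37 carriers that held it. No match says only that these letters are not in this window.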

How the data were processed

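The reads of the 6 libraries of total RNA were processed by the submitters with FastQC, TopHat2 2.0.14, featureCounts and DESeq2 on mm10, per the submitters' processing notes; for annotation release, strandedness and filters, nothing is given in the sources used here. Deposited was a table that holds, per the file headers, one log2 value per feature and library, the authors' mean normalized count over the 6 libraries (a signal), and their comparison: log2 fold change, its error, a test score and the p-value with its adjusted p-value. The per-library values are not counts: they behave as DESeq2's regularized log2 values, scaled by the authors' size factors and shrunken, most for weak genes. Levels per kilobase, summed levels and shares are back-transformed from these values. Columns were matched to samples by the sample number in the labels, and no 2 libraries were identical.

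From these values limma 3.58.1 (R 4.3.3), with a mean-variance trend and genotype as its only term, was fitted to the 15153 features whose normalized counts average 20 or more, without a pseudocount, since the values were deposited on a log scale; the procedure was tested on simulated data. Alternatives tried were a filter of 100 or none, pseudocounts of 1 and 16, scaling by library size with and without ribosomal features, no trend, library weights, library type, a replicate block, the authors' comparison and leaving out each library. Weights estimated gene by gene were added after seeing the data. Exon lengths and positions are those of GENCODE M21 on mm10, which holds all 59 carriers. Approximate reads are back-transformed values times size factors read from the steps of the mean normalized count.

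The carriers, gene lists and tests were chosen with earlier results of these data known. Called carriers with a mean of at least 100 and uncalled ones with at least 1000 are described by library, and other carriers by change and adjusted p. Up to 3 called genes of each related list are named by adjusted p, so any further gene named was chosen after its values were seen. One carrier, counted in the totals, is not reported here by itself. Adjusted p-values come from limma except where the authors' table is named.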

Additional observations from a re-analysis of the deposited data

How the results depend on the processing

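With one library left out in turn, the count of carriers called higher ran from 2 to 5 (2 leaving out WT replicate 1 or Qk-KO replicate 2), that of carriers called lower from 11 to 15, all features called from 2370 to 5633 (2663 leaving out WT replicate 1, 2568 for WT replicate 3 and 2370 for Qk-KO replicate 2) and related genes called higher from 8 to 22. The changes of 3 uncalled carriers crossed 0 there: Slc43a3 from -0.10 to 0.12, Slc7a3 from -0.0073 to 0.10 and Slc7a8 from -0.12 to 0.61. Scaling by library size alone gave 2 carriers lower, 2447 features called, no related gene lower (limma; 1 at an unadjusted p under 0.05, and 9 in the authors' deposited table) and a carrier median of 0.82. It turned the changes of Slc36a1 to 0.78, Slc38a1 to 0.95, Slc38a11 to 0.42, Slc38a5 to 0.23, Slc38a9 to 0.89, Slc3a2 to 0.54, Slc6a13 to 0.63, Slc6a17 to 0.65, Slc6a6 to 0.72, Slc6a9 to 0.17, Slc7a1 to 0.39 and Slc7a4 to 0.86. With library type in the model 2 carriers were higher, 2258 features called and 7 related genes higher; in Qk-KO replicate 1 alone against WT 2355 features were called and 8 related genes higher, and in both Slc38a1 was 0.043 and Slc43a3 -0.20. Without a filter 2 carriers were higher. Library weights from limma's default estimate, which stopped before its tolerance was met, left 5 carriers higher and 14 lower, whereas weights estimated gene by gene, added after seeing the data, gave 9 higher and 18 lower, 7177 features called, 26 related genes higher, a carrier median of -0.40 and a change of -0.43 for Slc7a8. The 2 estimates differ most for Qk-KO replicate 2, weighted 0.926 by the first and 3.71 by the second. With a replicate block 3 carriers were higher and 14 lower, 4345 features were called, and Slc7a6 was no longer called (adjusted p = 0.0756); the pairing was not borne out, since deviations of same-numbered libraries correlated at 0.10, 0.0046 and 0.08. Apart from the scaling, the cause of these shifts was not tested. Of the 59 carriers, 21 were not tested, 11 without a read and 10 with a mean under 20.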
